A study of Drosophila melanogaster with 12 samples.

Results

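The transcripts described here encode peptide hormones that Drosophila melanogaster makes in enteroendocrine cells, the hormone-secreting cells scattered through the gut lining. They are Tk (tachykinins), NPF (neuropeptide F), AstA and AstC (allatostatins A and C), Dh31 (diuretic hormone 31), CCHa1 and CCHa2 (CCHamide-1 and CCHamide-2), Mip (myoinhibiting peptides), Orcokinin (orcokinins) and ITP (ion transport peptide). They were chosen by their FlyBase symbols as known gut peptide genes, and make up 10 of the 16524 gene rows in the pharate count table. The choice was made with earlier results of these data known. Each of the 10 was also found in the adult table and passed the filter on low counts in the pharate libraries.

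Enteroendocrine cells cut peptide hormones out of larger precursor proteins, store them in dense-core vesicles and release them in response to food or to signals from other gut cells. In the fly midgut they fall into classes by the peptides they carry: cells with Tk, and in part of the gut NPF or Dh31 beside it, are largely separate from cells with AstA or AstC, and the mix changes along the length of the gut. Most of these genes are also transcribed in neurons, so gut RNA can hold a contribution from the nerves that supply the gut.

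The series asks how gut transcripts change when Hinfp is lost, an X-linked gene for a zinc finger protein related to a vertebrate regulator of histone transcription. Guts with Malpighian tubules, the fly's excretory organs, were taken from males at the pharate stage (adults that have formed but not yet left the pupal case) of the deletion allele Hinfp2 (DelMut), the point mutant allele Hinfp3 (PointMut) and the control strains FRT19A and W1118, with 2 libraries each. Intestines of adult males gave 1 library each of Y/Hinfp2 mutants, of Y/Hinfp2 flies with tub-Gal4 driving UAS-Hinfp-HA (Hinfp rescue), of Y/Hinfp2 flies with tub-Gal4 driving UAS-His1-HA (His1 rescue, with the linker histone) and of Y/FRT19A controls. Both rescue lines therefore kept the mutant allele, and tub-Gal4 drives expression throughout the body, not in the gut alone. Each sample held around 50 guts of flies raised at 25 °C, and the design text gave an age of 8 to 9 days for mutants and rescues and of 5 to 6 days for controls. Mutants and rescues shared an age, whereas age and genotype cannot be told apart where any of them is set against the adult control. The sample titles carry the tag SE for replicate 1 and PE for replicate 2 of each pharate group. Separate cultures are not mentioned, so the spread behind each p-value may be technical.

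Total gene counts lay between 21924226 and 28740669 in the pharate libraries and between 17991664 and 20271512 in the adult ones. Hinfp itself stood at 5.71 to 9.66 CPM (counts per 1000000 of library size, normalised by TMM in the pharate set) in the mutant pharate libraries, against 9.83 to 17.1 in the controls. It stood at 5.28 CPM in the adult mutant, 1597 in the Hinfp rescue and 6.26 in the His1 rescue, against 12.04 in the adult control. The SE and PE libraries stood apart: 32.6% of the 13244 genes tested differed between the tags by edgeR's quasi-likelihood test with Benjamini-Hochberg adjustment. Among the peptide genes AstA and ITP passed that test, both lower in PE libraries (log2 -0.91, adjusted p = 0.0183, and log2 -1.49, adjusted p = 0.00402, edgeR).

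Levels of different genes were set side by side in the authors' TPM, which divides by transcript length. By its median over the 8 pharate libraries AstC stood first with 180 TPM (range 112 to 363), followed by CCHa2 with 116, Tk with 92.4, CCHa1 with 83.4 and NPF with 58.3 TPM. Orcokinin had a median of 38.2 TPM, ITP 21.7, AstA 20.2 and Dh31 16.2 TPM. The ranges of neighbours in this order overlapped down to Dh31. Mip was the exception at the foot of the order: its median was 0.88 TPM and its highest library, 3.4 TPM, lay below the lowest Dh31 library, 9.7 TPM.

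Tk fell in the 4 mutant libraries as a class. Tk (FBgn0037976, BDGP6 chromosome 3R, 11994175 to 12005473, minus strand) encodes the tachykinins, which in the fly gut act on neighbouring enterocytes to limit lipid synthesis. It had 64.5 and 71.3 normalised CPM in the DelMut libraries and 71.6 and 63.0 in the PointMut libraries (SE, then PE), against 154 and 159 in FRT19A and 116 and 127 in W1118. Every mutant library was below every control library, and the mutant libraries lay close together. The mean was 67.6 ± 4.47 CPM in mutants and 139 ± 20.6 CPM in controls (SD, n = 4 each). The log2 fold change was -1.04 with a standard error of 0.14 (adjusted p = 0.00722, edgeR quasi-likelihood test, Benjamini-Hochberg over 13244 genes). The call held with each library left out in turn (adjusted p between 0.00744 and 0.0344, edgeR). The gene Ect3 lies within the Tk locus on the opposite strand without sharing an exon. Ect3 had 7.83 to 9.97 CPM in mutants, against 4.62 and 5.53 in FRT19A and 18.65 and 17.03 in W1118 (log2 -0.39, adjusted p = 0.651, edgeR). Its part in the Tk difference was not tested. In bulk RNA, fewer cells of a type and less RNA per cell cannot be told apart.

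Tk was the 1 call among the 10 genes in that test, where 10.9% of all genes tested were called, 4.59% higher and 6.34% lower. A share of 1 in 10 is near that background, so the count says nothing particular about peptide genes. The tag that separates SE from PE libraries also goes with the replicate number, and same-numbered libraries deviated together, so the test was repeated with the replicate number as a block. With the block 6 of the 10 were called: Tk, NPF, AstA and Orcokinin fell, and Dh31 and ITP rose. The blocked background was 31.5% of all genes, 19.2% lower and 12.3% higher. DESeq2 called 4 of the 10, with Tk, NPF and Orcokinin lower and Dh31 higher, where it called 18.4% of all genes. The median log2 fold change of the 10 in edgeR was -0.56, against -0.01 over all genes tested.

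**Figure D1:**
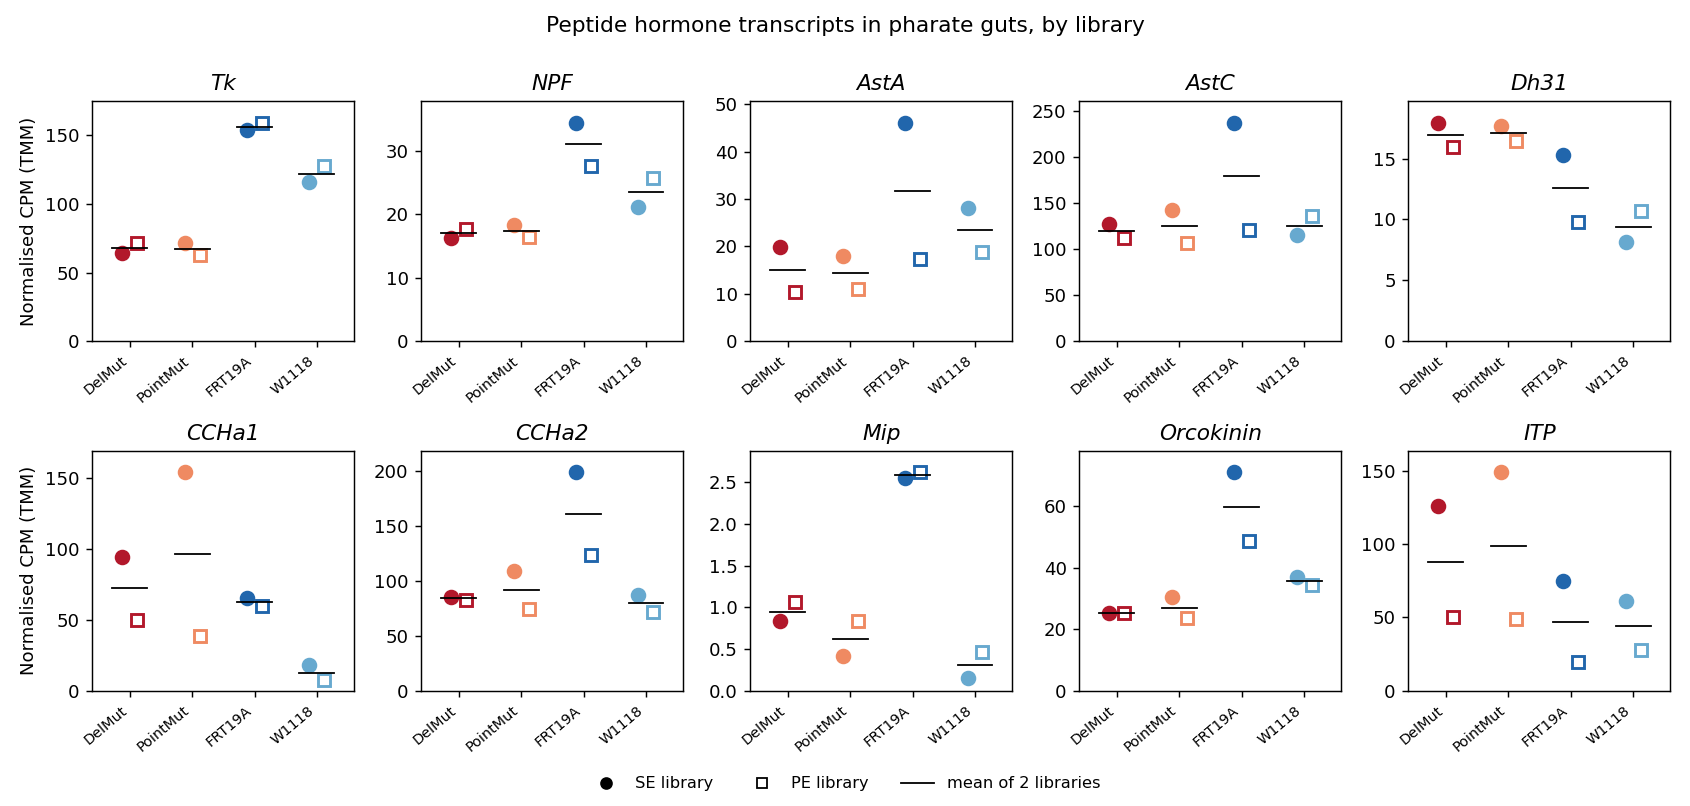
Normalised CPM (vertical axis, linear from 0, its scale differing between panels) of each peptide hormone gene in the 8 pharate libraries, with the mutants DelMut and PointMut left of the controls FRT19A and W1118. Filled circles are SE libraries, open squares PE libraries and lines the mean of 2 libraries; all Tk points of the mutants lie at 63.0 to 71.6 CPM, below the control points at 116 to 159 CPM.

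NPF and Orcokinin also stood lower in every mutant library than in any control library, as did 12.2% of all genes tested. NPF (FBgn0027109, chromosome 3R, 16609220 to 16611325, plus strand) encodes a feeding-related peptide that shares cells with Tk in part of the midgut. It had 16.2 and 17.7 CPM in DelMut and 18.3 and 16.4 in PointMut, against 34.4 and 27.6 in FRT19A and 21.1 and 25.8 in W1118. The log2 fold change was -0.66 with a standard error of 0.18, which missed the threshold (adjusted p = 0.0509, edgeR) and passed it with the replicate block (adjusted p = 0.0207). Orcokinin (FBgn0034935, chromosome 2R) had 25.1 CPM in both DelMut libraries and 30.4 and 23.5 in PointMut, against 70.9 and 48.5 in FRT19A and 37.0 and 34.4 in W1118. Its log2 fold change was -0.87 with a standard error of 0.25 (adjusted p = 0.0617, edgeR; 0.0257 with the block). The gap between mutants and W1118 was narrow for both genes, and FRT19A carried most of the difference in means.

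AstA and AstC encode allatostatins, which in insects slow gut movement and act on feeding. AstA (FBgn0015591, chromosome 3R, 24760530 to 24765071, minus strand) had 19.9 and 10.3 CPM in DelMut and 18.0 and 10.9 in PointMut, against 46.0 and 17.4 in FRT19A and 28.01 and 18.8 in W1118. The groups overlapped over all 8 libraries but not within the SE or within the PE libraries, where 24.3% of all genes tested lay lower in both mutants under both tags. Its log2 fold change of -0.90 (standard error 0.38) was not called without the block (adjusted p = 0.184, edgeR) and was called with it (adjusted p = 0.00943). AstC (FBgn0032336, chromosome 2L, 11076165 to 11081399, minus strand) had 127 and 112 CPM in DelMut and 143 and 106 in PointMut, against 237 and 121 in FRT19A and 115.4 and 136 in W1118. Apart from the SE library of FRT19A these values overlapped, and neither fit called the gene (log2 -0.32, standard error 0.25; adjusted p = 0.499, edgeR, and 0.275 with the block).

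Dh31 and ITP stood higher in mutants. Dh31 (FBgn0032048, chromosome 2L, 8491868 to 8506845, minus strand) encodes a peptide related to vertebrate calcitonin that acts on gut contraction and on fluid secretion. It had 17.9 and 15.9 CPM in DelMut and 17.7 and 16.5 in PointMut, against 15.3 and 9.83 in FRT19A and 8.17 and 10.7 in W1118. All mutant libraries were above all control libraries, if narrowly above the SE library of FRT19A, as was true of 9.35% of all genes tested. The log2 fold change was 0.63 with a standard error of 0.22 (adjusted p = 0.109, edgeR; 0.0473 with the block). The gene Bace lies within the Dh31 locus on the same strand without sharing an exon, and its own level ran from 350.6 to 835.7 CPM in mutants, against 9.10 to 625.5 CPM in controls. Its part in the Dh31 difference was not tested.

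ITP (FBgn0035023, chromosome 2R) encodes the ion transport peptide, which in the fly acts on thirst and water balance. It had 126 CPM in the SE library of DelMut and 149 in that of PointMut, against 74.4 in FRT19A and 61.0 in W1118. In the PE libraries it had 50.0 CPM in DelMut and 49.0 in PointMut, against 19.96 in FRT19A and 27.8 in W1118. Under both tags the mutants stood above the controls, as did 23% of all genes tested, while over all 8 libraries the groups overlapped because the SE controls exceeded the PE mutants. The log2 fold change was 1.03 with a standard error of 0.54 (adjusted p = 0.293, edgeR). With the block it was 1.04 (adjusted p = 0.00269). Some exons of ITP overlap exons of CG4622 on the opposite strand, and whether the counting used strand is not given in the sources used here. CG4622 had 12.1 to 13.2 CPM in mutants and 13.1 to 14.7 CPM in controls, with a log2 fold change of -0.14 (adjusted p = 0.581, edgeR).

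The CCHamide genes and Mip did not separate mutants from controls. CCHa1 (FBgn0038199, chromosome 3R, 14092504 to 14096835, minus strand), whose gut peptide has been linked to sleep and arousal, had 94.4 and 49.9 CPM in DelMut and 154 and 38.9 in PointMut, against 65.2 and 59.9 in FRT19A and 17.9 and 7.55 in W1118. Both W1118 libraries were far below the others, and the FRT19A libraries lay inside the mutant range. The log2 fold change of 1.16 had a standard error of 0.73 (adjusted p = 0.378, edgeR; 0.291 with the block). CCHa2 (FBgn0038147, chromosome 3R, 13389059 to 13395197, minus strand), a nutrient-responsive peptide made in gut and fat body, had 85.5 and 82.3 CPM in DelMut and 109 and 74.2 in PointMut, against 198 and 123 in FRT19A and 87.4 and 71.5 in W1118. Its log2 fold change was -0.45 (adjusted p = 0.438, edgeR). Here FRT19A was high and W1118 stood among the mutants.

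Mip (FBgn0036713, chromosome 3L, 17344947 to 17349666, minus strand), whose peptides inhibit visceral muscle contraction, was near the depth limit. It had 23 and 23 counts in DelMut and 11 and 19 in PointMut, against 70 and 62 in FRT19A and 5 and 11 in W1118. FRT19A was above every other library, and W1118 overlapped the mutants at the low end. The log2 fold change of -0.87 had a standard error of 0.85 (adjusted p = 0.583, edgeR).

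The comparison was also made within each tag. In PE libraries alone 6 of the 10 genes were called, with Tk, NPF, AstA and Orcokinin lower and Dh31 and ITP higher, where 39.6% of the 12308 genes tested were called, 16.9% lower and 22.7% higher. In SE libraries alone none of the 10 and none of 12474 genes passed in edgeR, although 4 of the 10 and 3046 of all genes had an unadjusted p under 0.05. Tk had a log2 fold change of -1.01 in SE and -1.06 in PE libraries, and ITP one of 1.0 in SE and 1.08 in PE libraries. The difference of the effects between tags was not called for any of the 10 (adjusted p from 0.826 to 0.998, edgeR, none at an unadjusted p under 0.05), where 6.07% of all genes were called. CCHa1 had the widest gap, with 1.57 in SE and 0.43 in PE libraries.

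**Figure D2:**
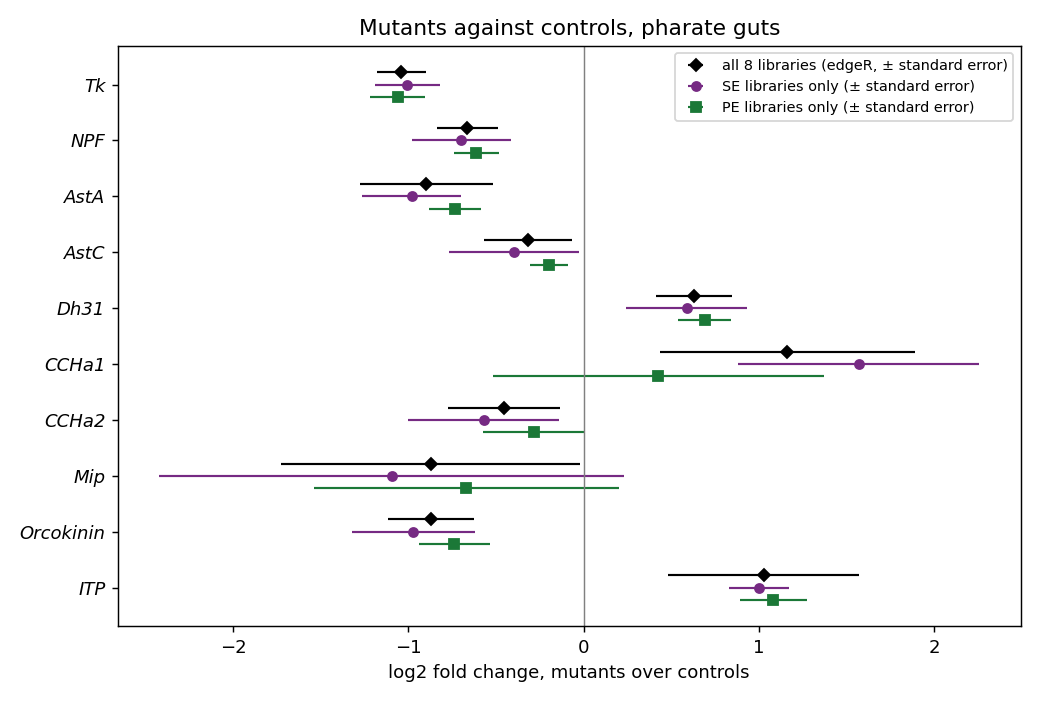
Log2 fold change of mutants over controls (horizontal axis) for each peptide hormone gene, from all 8 pharate libraries and from the SE or PE libraries alone, with bars of 1 standard error. Tk lies near -1 and ITP near 1 in all 3 fits, while CCHa1 and Mip have the longest bars.

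Each allele was also set against each control strain. These contrasts share libraries, so they are read side by side and are not independent. Without the block no gene at all passed in the fit of 4 groups by edgeR, peptide genes included. An unadjusted p under 0.05 was found for 4 peptide genes in DelMut against FRT19A, 5 in PointMut against FRT19A and 3 in each allele against W1118, and for 1594 to 1949 of all genes. DESeq2 called 3 of the 10 in DelMut against FRT19A (8.08% of all genes), and 2 each in PointMut against FRT19A (7.68%), DelMut against W1118 (6.47%) and PointMut against W1118 (5.94%). With the replicate block edgeR called 4 of 10 for DelMut against FRT19A (background 11.3%), 3 of 10 for PointMut against FRT19A (8.35%), 2 of 10 for DelMut against W1118 (6.83%) and 2 of 10 for PointMut against W1118 (5.69%).

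Tk was the gene called in all of these blocked contrasts (adjusted p from 0.0269 to 0.0386, edgeR). Its blocked log2 fold change was -1.20 in DelMut and -1.21 in PointMut against FRT19A, and -0.84 in DelMut and -0.85 in PointMut against W1118. Orcokinin fell against FRT19A, with a blocked log2 fold change of -1.22 in DelMut and -1.14 in PointMut. Against W1118 it had -0.50 in DelMut and -0.42 in PointMut, neither called. ITP rose against FRT19A, with 1.03 in DelMut and 1.13 in PointMut. Against W1118 the blocked values were of like size but not called, at 0.94 in DelMut (adjusted p = 0.0610, edgeR) and 1.04 in PointMut (adjusted p = 0.0564, edgeR). CCHa2 fell in DelMut against FRT19A (blocked log2 -0.90, adjusted p = 0.0452, edgeR). CCHa1 rose in both alleles against W1118, with a blocked log2 fold change of 2.56 in DelMut (adjusted p = 0.0473, edgeR) and 2.80 in PointMut (adjusted p = 0.0454, edgeR). Against FRT19A, CCHa1 had a blocked log2 fold change of 0.063 in DelMut and 0.31 in PointMut, neither of them called. NPF, AstA and Dh31, which were called over both alleles and both strains together, were not called in any single blocked contrast.

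The alleles were also set against each other. DelMut against PointMut gave log2 fold changes from -0.42 (CCHa1) to 0.61 (Mip), none called by edgeR with or without the block, none by DESeq2 (0.0484% of all genes) and none at an unadjusted p under 0.05. The sign of each except Mip turned when some library was left out. For Tk the difference was 0.01 with a standard error of 0.18, and for NPF -0.03 with a standard error of 0.24. That a p misses the threshold does not show that the alleles act alike, and for ITP the standard error of 0.89 leaves a wide range.

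The control strains were compared in the same fit. W1118 against FRT19A gave a negative log2 fold change for all 10 genes, with a median of -0.47, although for ITP it was -0.087 and turned to 0.089 with the block. None was called by edgeR with or without the block (1 of all genes with it, 0.00755%). Of the 10, 4 had an unadjusted p under 0.05, as did 606 of all genes (4.58%), and DESeq2 called 1, Mip (log2 -3.06, adjusted p = 0.0128), where it called 2.02% of all genes. The widest gaps were -3.06 for Mip, -2.30 for CCHa1 and -1.02 for CCHa2. For CCHa1, Mip, CCHa2 and AstC the fitted strain gap was larger in size than the difference of mutants from controls (1.16 for CCHa1, -0.87 for Mip, -0.45 for CCHa2 and -0.32 for AstC, against a strain gap of -0.51 for AstC), which was not tested.

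**Figure D3:**
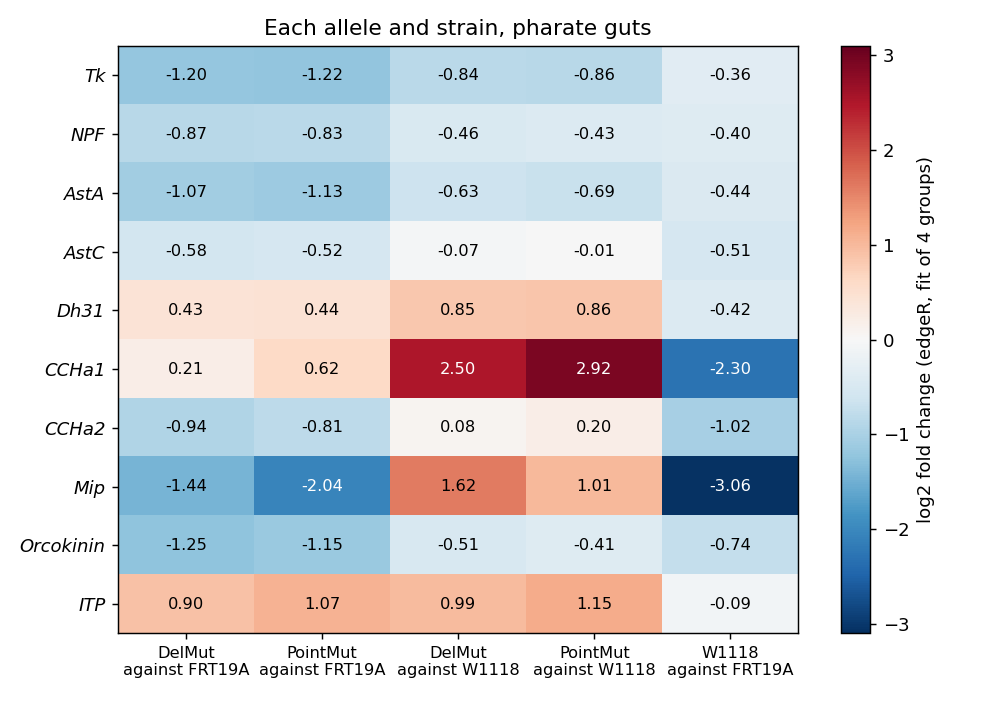
Log2 fold change (colour and printed value) of each peptide hormone gene in each allele against each control strain, and of W1118 against FRT19A, from 1 fit of 4 groups. Tk, NPF, AstA and Orcokinin are negative in all 4 allele columns and Dh31 and ITP positive, whereas CCHa1 is 2.5 and 2.92 against W1118 but 0.21 and 0.62 against FRT19A.

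These genes are transcribed in several classes of enteroendocrine cells and in part in other tissues. Their make-up within a library, over all of these together, was also followed as a share of the summed TPM of the 10. In the adult set TPM was computed from the counts and the table's gene lengths. Tk made up 9.63 and 13.4% in DelMut and 8.40 and 13.05% in PointMut, against 14.1 and 21.5% in FRT19A and 20.6 and 22.9% in W1118. The share of Tk was lower in each mutant library than in any control library. CCHa1 made up 26.7 and 17.7% in DelMut and 34.1 and 15.2% in PointMut, against 11.4 and 15.3% in FRT19A and 6.00 and 2.57% in W1118. The SE libraries of both alleles had the highest CCHa1 shares, and the PE library of PointMut lay level with that of FRT19A. AstC stayed the largest or second-largest part, with 22.6 to 29.6% in mutants and 21.9 to 32.9% in controls.

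Ratios of counts within a library do not depend on scaling. CCHa1 counts per Tk count were 1.46 and 0.699 in DelMut and 2.15 and 0.617 in PointMut, against 0.425 and 0.377 in FRT19A and 0.154 and 0.0592 in W1118. ITP counts per Tk count were 1.95 and 0.701 in DelMut and 2.08 and 0.778 in PointMut, against 0.485 and 0.126 in FRT19A and 0.525 and 0.218 in W1118. Both ratios were higher in every mutant library than in any control library, and within each group they were higher in the SE library. Tk, the shared denominator, was itself lower in every mutant library. AstC, which was not called, separated in the same way. Its counts per Tk count were 1.57 to 1.995 in mutants, against 0.758 to 1.54 in controls. The separation therefore does not by itself show a rise of CCHa1 or ITP. These pairs of genes were chosen after their values were seen, so no test was made.

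**Figure D4:**
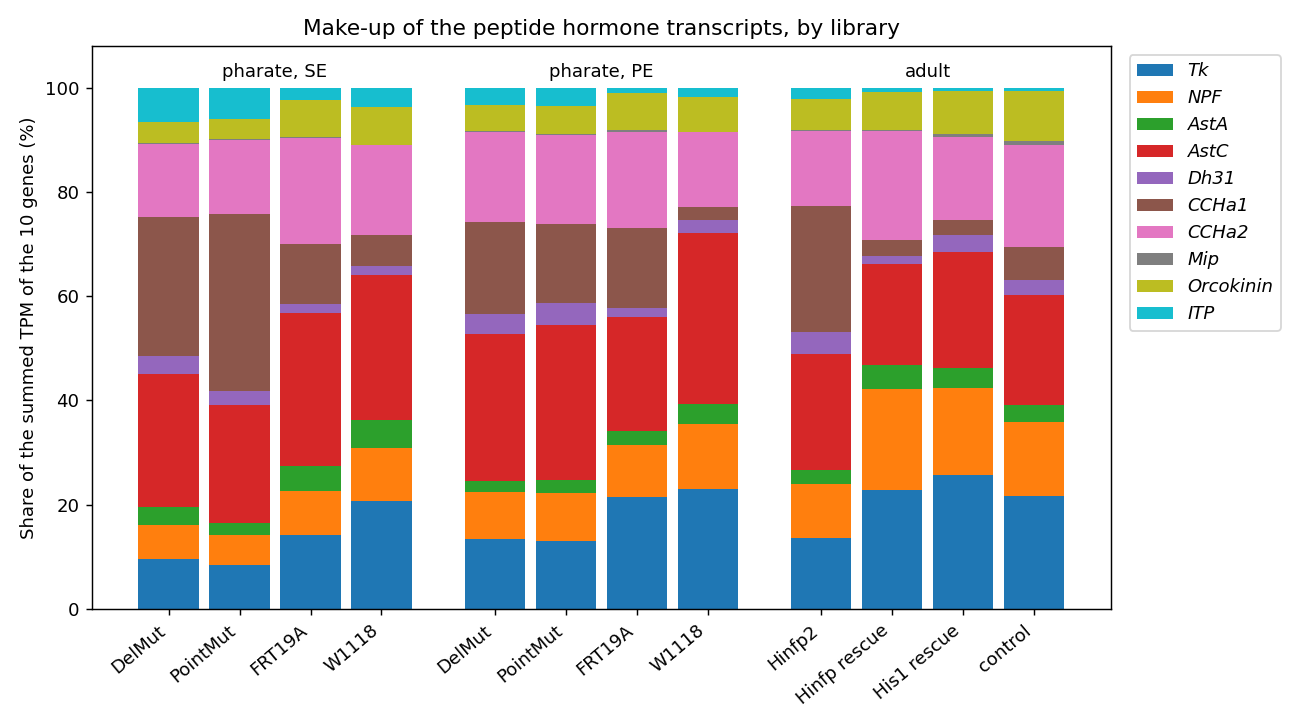
Share of the summed TPM of the 10 peptide hormone genes (vertical axis, percent) in each library, stacked by gene, for the SE and PE pharate libraries and the adult libraries. CCHa1 takes 15.2 to 34.1% in pharate mutants, against 2.57 to 15.3% in pharate controls, and 24.2% in the adult mutant, against 6.36% in the adult control.

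Across the 8 pharate libraries, after subtracting the mean of each tag, the level of NPF went with that of Orcokinin (Pearson r = 0.979 of log2 CPM), AstA (r = 0.957) and Tk (r = 0.949). Tk also went with Orcokinin (r = 0.934) and AstA (r = 0.9285), and ran opposite to ITP (r = -0.925). Dh31 went with ITP (r = 0.880). These are descriptions over 8 libraries of 4 shared genotypes. For the genes with the highest mean TPM, the closest profiles among 8253 genes were those of CSN1b (r = 0.983), Dh31-R (0.982) and CG34408 (0.977) for AstC, of Sarm (0.987), Rtf1 (0.984) and CG44251 (0.983) for CCHa1, and of Deaf1 (0.987), Golgin245 (0.983) and c12.1 (0.982) for CCHa2.

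The genes around the hormones were followed as lists. The lists were also chosen with earlier results of these data known, so their counts beside the background are descriptions and test nothing. Of the receptors of these peptides, 10 of 11 were tested and 1 fell, TkR99D, a tachykinin receptor, with 13.1 CPM in mutants and 37.5 CPM in controls on average (log2 -1.52, adjusted p = 0.0381, edgeR). The SE library of FRT19A was the high one at 68 CPM, without which the controls averaged 27.3 CPM (log2 -1.06, adjusted p = 0.0393, edgeR), and leaving out any other library except the SE library of W1118 ended the call (adjusted p up to 0.111). CCHa1-R, the CCHamide-1 receptor, had a log2 fold change of -1.13 (adjusted p = 0.0627, edgeR; 0.0201 with the block), and AstA-R2, an allatostatin A receptor, one of -0.53 (adjusted p = 0.108). The list had a median log2 fold change of -0.47, with 2 called lower and 0 higher with the block, against the backgrounds given above.

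Of the 14 genes for prohormone processing and secretion, 5 fell and 0 rose, where 6.34% of all genes fell and 4.59% rose. Like the other lists it was chosen with earlier results known, so this share is a description only. Cadps, which primes dense-core vesicles for release, had the smallest adjusted p, with 5.57 CPM in mutants and 26.5 CPM in controls (log2 -2.25, adjusted p = 0.00447, edgeR), and held with any library left out (adjusted p up to 0.0242). Fur2, a furin-type protease, fell by 0.73 on the log2 scale (adjusted p = 0.0128, edgeR), and 7B2, the chaperone of the prohormone convertase amon, fell by 0.77 (adjusted p = 0.0336, edgeR). The other two calls, named after their values were seen, were amon itself (log2 -0.70) and Phm, the enzyme that starts peptide amidation (log2 -0.65). These 4 calls were less stable than that of Cadps: with 1 library left out the adjusted p in edgeR ran up to 0.0518 for Fur2, 0.105 for 7B2, 0.150 for amon and 0.134 for Phm. The list's median was -0.29, and with the block 6 of its genes were lower and 2 higher, where 19.2% of all genes were lower and 12.3% higher.

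Of the 11 genes for enteroendocrine fate, 7 were tested and none was called by edgeR without the block, where 10.9% of all genes tested were. The transcription factor genes tap (log2 -1.77, adjusted p = 0.111), pros (log2 -0.86, adjusted p = 0.198) and Poxn (log2 -0.81, adjusted p = 0.233) had the smallest adjusted p in edgeR. With the block tap (adjusted p = 0.00483, edgeR) and pros (adjusted p = 0.0136, edgeR) passed as lower, where 19.2% of all genes were lower. The median of the list was -0.39. Among 39 other peptide hormone genes 19 were tested, 1 rose and 0 fell, where 4.59% of all genes rose and 6.34% fell. The 1 that rose was Dh44, a diuretic hormone made mainly in brain neurons. It had 12.9 and 14.9 CPM in DelMut and 10.3 and 57.2 in PointMut, against 3.17 and 2.07 in FRT19A and 0.610 and 1.39 in W1118 (log2 3.72, adjusted p = 0.0228, edgeR). The PE library of PointMut was far above the rest, and without it the log2 fold change was 2.81 (adjusted p = 0.0475, edgeR). The call ended without the PE library of DelMut (adjusted p = 0.0550), of FRT19A (0.0656) or of W1118 (0.0694). Burs, a subunit of the hormone bursicon, had 0.0732 and 0 CPM in DelMut and 0 in both PointMut libraries, against 9.72 and 9.33 in FRT19A and 0 and 0.0843 in W1118 (adjusted p = 0.0777, edgeR). It stood high in FRT19A alone, and W1118 lay with the mutants. Nplp4 had 3.37 and 0.598 CPM in DelMut and 7.63 and 1.05 in PointMut, against 0.655 and 0.338 in FRT19A and 0.610 and 0.0843 in W1118 (adjusted p = 0.0957, edgeR). The median of the 19 other peptide hormone genes was 0.65. With the block 7 of them were higher and 1 lower, where 12.3% of all genes were higher and 19.2% lower.

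The labelled tissue showed its markers in all groups: the 6 Malpighian tubule markers summed to 1007 to 2313 CPM in mutants and 681 to 1922 CPM in controls (2 rose, 1 fell), and the 5 visceral muscle markers to 3781 to 5899 CPM in mutants and 5436 to 7302 CPM in controls (0 called). Some markers of other cell types were called too, where 10.9% of all genes tested were called without the block. Their part in the peptide results was not tested. Of the 6 enterocyte markers 3 rose and 0 fell, and their summed level was 4490 to 7172 CPM in mutants, against 1268 to 4827 CPM in controls. The 7 neuron markers had 0 calls and a summed 50.5 to 87.2 CPM in mutants, against 54.3 to 87.1 CPM in controls. Of the testis and male germline markers 1 of 8 rose, with a summed 124 to 176 CPM in mutants, against 10.3 to 127 CPM in controls. The 5 fat body markers had 0 calls and a summed 69.0 to 609 CPM in mutants, against 18.5 to 136 CPM in controls. The 6 enteroendocrine markers, which include Tk, NPF and AstC, had 3 lower and 0 higher without the block, and 5 lower and 0 higher with it. They summed to 210 to 263 CPM in mutants, against 296 to 479 CPM in controls. With the replicate block the other calls were 4 enterocyte markers higher, 2 visceral muscle markers lower, and 1 neuron marker higher and 2 lower. Also called were 2 fat body markers higher, 1 testis marker higher and 1 progenitor marker higher. Of the glia markers 1 was higher and 1 lower, and of the tubule markers 2 were higher and 1 lower. The blocked background was 31.5% of all genes, 12.3% higher and 19.2% lower, so such counts say little about single tissues.

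In adult intestines there was 1 library per genotype, so no test was possible. Intervals are exact and cover counting error only, and a gene counted as past the fold at a log2 ratio of CPM of at least 1 in size with at least 10 counts in either library. For the Hinfp2 mutant against the control 3 of the 10 were past it, CCHa1 and ITP higher and Mip lower, where 44.3% of 12551 genes were. The median log2 ratio over all genes was 0.30 for mutant against control, -0.24 for the Hinfp rescue against the mutant and -0.23 for the His1 rescue against the mutant, so the printed ratios of these comparisons are also given less that median.

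CCHa1 had 62.8 CPM in the adult mutant, 9.50 in the Hinfp rescue and 8.35 in the His1 rescue, against 17.0 CPM in the control. The mutant was the high library and both rescues were below the control. The log2 ratio of mutant to control was 1.88 (95% interval 1.71 to 2.06, or 1.58 less the median of all genes). Against the mutant, the log2 ratio was -2.72 in the Hinfp rescue (-2.49 less the median) and -2.91 in the His1 rescue (-2.68 less the median). ITP had 29.5 CPM in the mutant, 15.6 in the Hinfp rescue and 11.6 in the His1 rescue, against 9.87 CPM in the control. Its log2 ratio of mutant to control was 1.58 (1.35 to 1.82, or 1.28 less the median), and both rescues lay between mutant and control.

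Tk had 66.9 CPM in the mutant, 134 in the Hinfp rescue and 141 in the His1 rescue, against 110 CPM in the control. The mutant was the lowest library, with a log2 ratio to the control of -0.71 (-0.81 to -0.61, or -1.01 less the median). The log2 ratio to the mutant was 1.0 in the Hinfp rescue (1.24 less the median) and 1.08 in the His1 rescue (1.31 less the median). NPF had 18.8 CPM in the mutant, 41.9 in the Hinfp rescue and 34.0 in the His1 rescue, against 26.8 CPM in the control. As for Tk, the mutant was lowest and the control lay between it and both rescues. AstA had 11.7 CPM in the mutant, 24.1 in the Hinfp rescue and 19.6 in the His1 rescue, against 14.1 CPM in the control. Orcokinin had 26.9 CPM in the mutant, 38.6 in the Hinfp rescue and 41.8 in the His1 rescue, against 44.5 CPM in the control, which was the highest.

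The other peptide genes varied less or without that order. AstC had 80.8 CPM in the mutant, 83.9 in the Hinfp rescue and 90.6 in the His1 rescue, against 79.5 CPM in the control. Its log2 ratio of mutant to control was 0.02, or -0.27 less the median of all genes. CCHa2 had 63.3 CPM in the mutant, 110 in the Hinfp rescue and 78.5 in the His1 rescue, against 89.1 CPM in the control. Dh31 had 16.7 CPM in the mutant, 6.89 in the Hinfp rescue and 15.0 in the His1 rescue, against 11.99 CPM in the control, so the rescues lay on opposite sides of the control. Mip had 19 counts in the mutant, 16 in the Hinfp rescue and 49 in the His1 rescue, against 62 counts in the control.

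**Figure D5:**
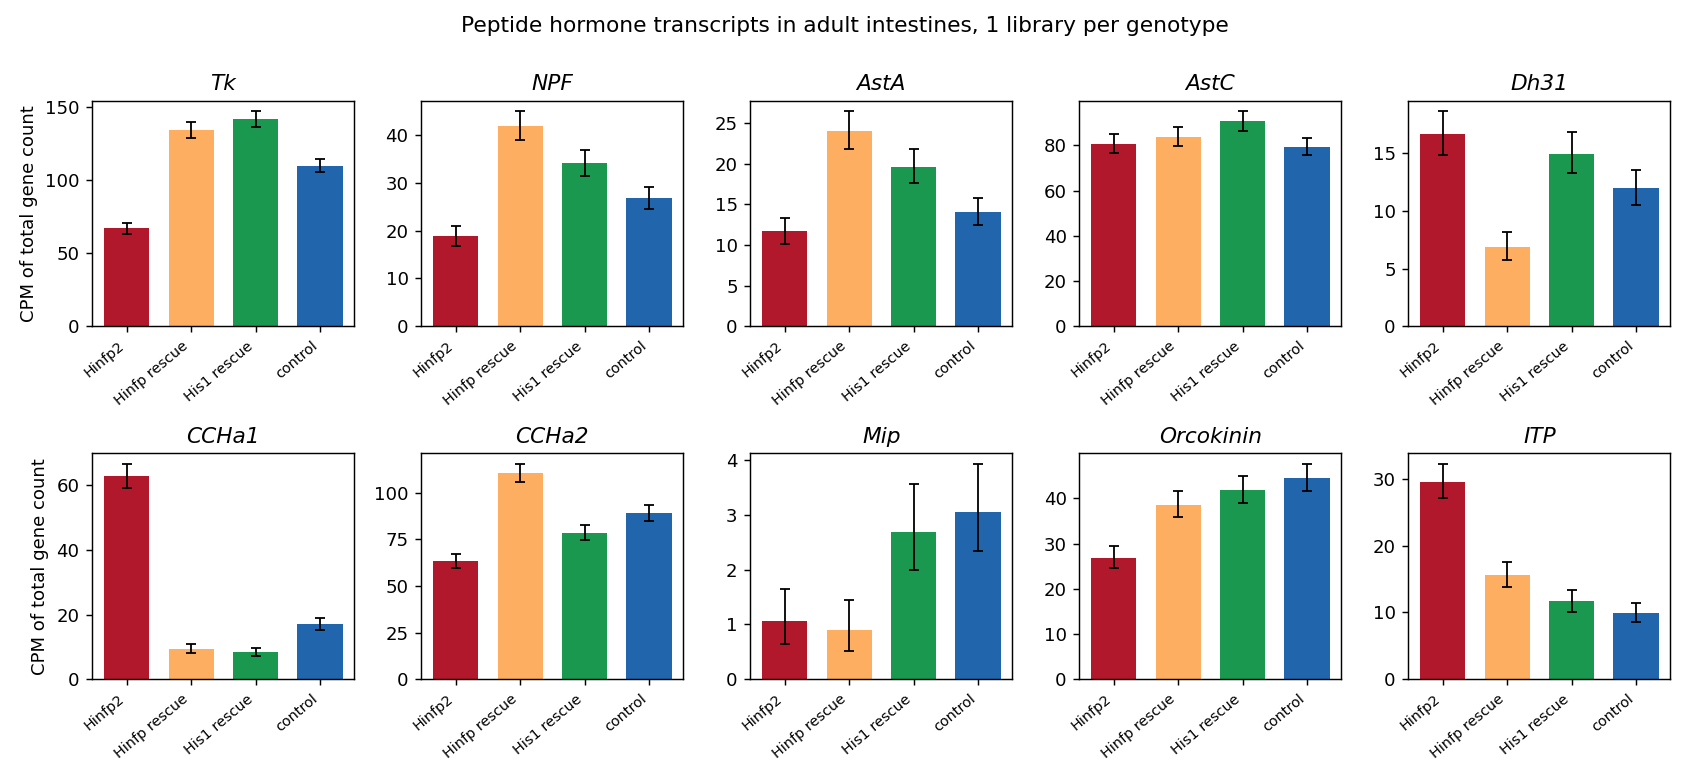
CPM of total gene count (vertical axis, linear from 0, its scale differing between panels) of each peptide hormone gene in adult intestines, 1 library per genotype, with the control at the right of each panel. Bars end at the measured value and whiskers are exact 95% Poisson intervals of the counts; CCHa1 reaches 62.8 CPM in the mutant, against 17.0 in the control and under 10 in both rescues.

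Of the 10 genes 1 was past the fold in the Hinfp rescue against the control (Mip, lower) and 1 in the His1 rescue against the control (CCHa1, lower), where 22% of all genes were in each. Against the mutant 5 of 10 were past it in the Hinfp rescue (background 37.9%), with Tk, NPF and AstA higher and Dh31 and CCHa1 lower. In the His1 rescue 4 of 10 were (background 37.3%), with Tk and Mip higher and CCHa1 and ITP lower. All of these ratios share the control or the mutant library. CCHa1 counts per Tk count, which no scaling changes, were 0.939 in the mutant, 0.0710 in the Hinfp rescue and 0.0590 in the His1 rescue, against 0.155 in the control. Tk, the denominator, was lowest in the mutant. AstC counts per Tk count were 1.21 in the mutant, 0.626 in the Hinfp rescue and 0.641 in the His1 rescue, against 0.725 in the control.

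Genes around the hormones were read in the same adult libraries. Past the fold in mutant against control were 2 receptors higher and 2 lower of 10, 2 processing genes higher and 2 lower of 14, 1 fate gene higher and 1 lower of 7, and 7 other peptide hormone genes higher and 5 lower of 15, where 44.3% of all genes were past it. Cadps had 6.55 CPM in the mutant, 20.01 in the Hinfp rescue and 20.6 in the His1 rescue, against 22.7 CPM in the control. The mutant was the low library for Cadps, while for TkR99D the rescues stayed near the mutant, with 10.9 CPM in the mutant, 12.6 in the Hinfp rescue and 11.04 in the His1 rescue, against 25.3 CPM in the control. Dh44 had 80.6 CPM in the mutant, 1.83 in the Hinfp rescue and 4.67 in the His1 rescue, against 2.81 CPM in the control.

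The adult libraries also differed in RNA of other cell types and neighbouring tissues. Of all genes, 44.3% were past the fold in the mutant against the control, and 22% in each rescue against the control. The 6 enterocyte markers summed to 7832 CPM in the mutant, 24052 in the Hinfp rescue and 20093 in the His1 rescue, against 5490 CPM in the control. The 5 visceral muscle markers summed to 6315 CPM in the mutant, 3021 in the Hinfp rescue and 3587 in the His1 rescue, against 5886 CPM in the control. In each rescue 4 of the 6 enterocyte markers were past the fold above the control. All 8 testis and male germline markers with enough counts were past the fold, with a summed 384 CPM in the mutant, against 7.99 CPM in the control, while the 2 with enough counts in the rescues summed to 11.8 CPM in the Hinfp rescue and 13.3 in the His1 rescue, against 7.35 CPM in the control. Akh, the hormone of the corpora cardiaca, which lie beside the front of the gut, had 0.722 CPM in the mutant, 27.8 in the Hinfp rescue and 21.7 in the His1 rescue, against 43.1 CPM in the control. All 4 fat body markers with enough counts were past the fold above the control in the mutant, with a summed 430 CPM, against 103 CPM in the control. In each rescue only 1 of the 4, apolpp, was past it. Of the summed 302 CPM in the Hinfp rescue and 472 in the His1 rescue, apolpp made up 275 and 451 CPM. The 7 neuron markers summed to 37.2 CPM in the mutant, against 31.3 CPM in the control, with 2 past the fold, both higher. Of the 6 tubule markers 3 were past it higher and 3 lower in the mutant, with a summed 2479 CPM, against 1841 CPM in the control. Of 3 glia markers with enough counts 2 were higher and 1 lower. The 6 enteroendocrine markers, which include Tk, NPF and AstC, summed to 191 CPM in the mutant, 311 in the Hinfp rescue and 315 in the His1 rescue, against 261 CPM in the control. The part of these other cell types and tissues in the peptide ratios was not tested.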

How the data were processed

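The pharate table holds the authors' deposited read counts per gene (build BDGP6 or dm6). Per the submitters' processing notes, featureCounts 1.5.2 did the counting and STAR 2.5.3a the alignment. TPM values per gene are also the authors' deposited values. The adult table holds deposited counts, and for it the notes name featureCounts 1.6.2, STAR 2.5.3a, Bowtie2 2.3.5, Trimmomatic 0.39, DESeq2 and edgeR 3.28.1. Its transposon rows were left out of the totals. Library preparation is given as ribosomal depletion in one label and as poly-A selection in another. Another 112 per-sample columns were not used.

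Genes were matched by FlyBase ID; 16403 of 16524 rows had a symbol. The main test was edgeR 4.0.16 in R 4.3.3 (quasi-likelihood, filterByExpr with a minimum count of 10, TMM, two-sided, Benjamini-Hochberg at 0.05). On simulated data it missed most of the changes put in, so a gene that was not called may still have changed. The classes were 4 mutant and 4 control libraries; single alleles and strains came from 1 fit of 4 groups. Alternatives were DESeq2 1.42.0, RLE factors, no filter, the replicate block, leaving out noncoding and mitochondrial genes, and leaving out each library. Same-numbered libraries deviated together in every pair of groups (correlation over genes 0.675 to 0.843), and the number goes with the SE or PE tag. The block therefore took the numbers as pairing the samples. The main test left this pairing out, so its spread includes the difference between tags. A standard error was obtained as the log2 fold change over the root of the F statistic. Adult CPM used the total gene count with a prior count of 0.5 in ratios. Coordinates are from Ensembl release 115. All 10 members are named; each other list gives its 3 smallest adjusted p. The members and lists were chosen with earlier results of these data known.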

Additional observations from a re-analysis of the deposited data

How the results depend on the processing

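Where edgeR called 1 of 10 peptide genes and 1448 genes in mutants against controls, DESeq2 called 4 and 2718, the replicate block 6 and 4177, and edgeR without noncoding and mitochondrial genes called 2 peptide genes (Tk and NPF). Leaving out 1 library gave 1 to 3 peptide genes and 445 to 1783 genes: without the SE library of W1118 NPF and Orcokinin joined Tk, and without the SE library of FRT19A Dh31 did. For single contrasts, against 0 in edgeR, DESeq2 called 3 peptide genes and 1050 genes in DelMut against FRT19A (block 4 and 1493), 2 and 841 in DelMut against W1118 (block 2 and 904), 2 and 998 in PointMut against FRT19A (block 3 and 1106; no filter 7 genes), 2 and 791 in PointMut against W1118 (block 2 and 753), 1 and 263 in W1118 against FRT19A (block 1 gene) and 8 genes in DelMut against PointMut. Leaving out 1 library left all of these at 0, the lone library of its group then being assumed to vary like the others. In the adult set no minimum count put 4463 genes past the fold for the Hinfp rescue and 4512 for the His1 rescue, against 2314 and 2324. The cause was not tested in any of these. The block changed no other call of a peptide gene.

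Signs turned only in values that were not called, given here as ranges over left-out libraries; outside DelMut against PointMut these were 15. CCHa1 ran from -0.33 to 0.59 (DelMut against FRT19A) and from -0.70 to 1.29 (PointMut against FRT19A). AstC ran from -0.20 to 0.054 (DelMut against W1118), from -0.93 to 0.043 (PointMut against FRT19A) and from -0.26 to 0.19 (PointMut against W1118, where DESeq2 gave 0.0037). CCHa2 ran from -0.056 to 0.21 (DelMut against W1118) and from -0.11 to 0.45 (PointMut against W1118). For W1118 against FRT19A, AstA ran from -0.98 to 0.42, AstC from -0.92 to 0.052 and ITP from -0.75 to 1.15, with 0.089 under the replicate block. Between DelMut and PointMut, where fitted differences lie near 0, 17 more turned: Tk ran from -0.074 to 0.12, NPF from -0.11 to 0.063, AstA from -0.49 to 0.48, AstC from -0.25 to 0.19, Dh31 from -0.10 to 0.065 (DESeq2 0.0043), CCHa1 from -1.09 to 0.91, CCHa2 from -0.37 to 0.19, Orcokinin from -0.27 to 0.11 and ITP from -0.98 to 0.86. With TMM factors the adult log2 ratios of mutant to control were -0.94 for Tk, 1.65 for CCHa1 and 1.35 for ITP, and AstC turned to -0.21; Dh31 turned to 0.049 in the His1 rescue against the mutant. Mip, with 5 to 70 counts in pharate libraries, is limited by depth.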
